A study of Mus musculus with 14 samples.

Results

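Tropomyosins are coiled-coil proteins that lie along the actin filament and decide which other proteins can reach it. In striated muscle they carry troponin and gate the access of myosin, and in other cells their many isoforms mark filaments of unlike function. The calponins and transgelins are their neighbours on the filament, and the LIM-domain protein FHL2 is an adaptor that links integrins, the actin cytoskeleton and transcription factors. Many of these genes are known targets of the serum response factor SRF, which binds the CArG box together with the actin-sensing cofactors MRTF-A and MRTF-B. The genes examined were 8 of the 45362 genes with a value in every sample of an experiment. They were the tropomyosin genes Tpm1, Tpm2, Tpm3 and Tpm4, the calponin genes Cnn2 and Cnn3, the transgelin gene Tagln2 and the LIM-domain gene Fhl2. They were chosen by name, and because Tpm2 and Fhl2 had been seen to be higher in HDAC1cKO-HDAC2HET cells, so their levels in that comparison are given as a description with no test.

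RNA-Seq was performed on 14 samples of activated CD4+ T cells from C57BL/6 mice, in 2 experiments. Naive CD4+ T cells were sorted from mice of 6 to 12 weeks of age, cultured with anti-CD3, anti-CD28 and IL-2 for 3 days, and RNA was taken from sorted live cells. The first experiment compared 4 WT samples with 4 samples of the genotype HDAC1f/f HDAC2f/+ CD4-cre+ (HDAC1cKO-HDAC2HET), in which 1 Hdac2 allele stays intact. The second compared 3 WT samples with 3 samples of the genotype HDAC1f/f CD4-cre+ (HDAC1cKO), all of which were restimulated with anti-CD3 for 12 hours. CD4-cre deletes in the T cell lineage, and the samples of the first experiment were, per the study, independent cell preparations of the same day. Whether the restimulated replicates came from separate mice is not given in the sources used here, so their p-values measure the spread between these samples. Values were FPKM, fragments scaled to transcript length and to the mapped reads, as deposited for each library, and they allow levels to be compared between genes per unit of length.

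Hdac1 was at 78.1 ± 1.44 FPKM in WT and 8.30 ± 1.89 FPKM in HDAC1cKO-HDAC2HET samples (SD, n = 4 each), and Hdac2 was at 59.0 ± 1.04 and 35.4 ± 1.36 FPKM. After restimulation Hdac1 was at 75.6 ± 4.78 FPKM in WT and 10.1 ± 1.82 FPKM in HDAC1cKO samples (SD, n = 3 each). Hdac2 was there at 72.4 ± 8.65 and 80.4 ± 6.91 FPKM, with groups that overlapped. Estimated depth ranged from 23700000 to 55800000 fragments a library. The 8 T cell markers were present at a summed level of 1402 to 1774 FPKM in every library. In HDAC1cKO-HDAC2HET cells 7 of them fell, by 0.18 (Cd3g) to 0.65 (Cd3d) on the log2 scale, and Thy1 rose by 0.92, for a median of -0.44 (limma, adjusted p of at most 0.05), beside 27.6% lower and 24.2% higher among all genes tested. In restimulated cells 0 of the 8 passed, 1 had an unadjusted p under 0.05 and the median was 0.06 (limma). The part of this shift in the members' levels was not tested. The restimulated samples were unlike in sex-linked genes, since the Y-linked Eif2s3y was at 0.0326, 35.0 and 5.56 FPKM in WT replicates 1, 2 and 3 and at 34.1 to 43.1 FPKM in all 3 HDAC1cKO samples. WT replicate 3 also had Xist, the RNA of the inactive X, at 33.2 FPKM, so its library held both kinds of sex-linked RNA. Results of the restimulated cells are therefore also given without WT replicate 3 and with a sex term. The sex term was set by Xist, at 42.9 and 33.2 FPKM in WT replicates 1 and 3. Xist was at most 0.0435 FPKM in the other restimulated samples. The log2 fold changes with the sex term thus rest on WT replicate 2 alone against the HDAC1cKO samples. They are given as effect sizes only, since sex and genotype nearly coincided.

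The promoter windows of Tpm2, Fhl2 and Cnn2 are shown first, because Tpm2 and Fhl2 had the largest differences from WT, and Fhl2 and Cnn2 were the members whose windows held a CArG box. The windows are RefSeq sequences of build GRCm38.p6 and run from 250 bases before to 50 bases after a start site. Capitals mark the searched motifs, which were the CArG box of SRF, CATTCC of the TEAD factors, TGTGGT of the RUNX factors, TGANTCA of AP-1, GGGCGG of the SP family and TATAAA. Both strands were searched, so a motif can appear as its reverse complement.
Tpm2, chr4:43523505-43523804, minus strand: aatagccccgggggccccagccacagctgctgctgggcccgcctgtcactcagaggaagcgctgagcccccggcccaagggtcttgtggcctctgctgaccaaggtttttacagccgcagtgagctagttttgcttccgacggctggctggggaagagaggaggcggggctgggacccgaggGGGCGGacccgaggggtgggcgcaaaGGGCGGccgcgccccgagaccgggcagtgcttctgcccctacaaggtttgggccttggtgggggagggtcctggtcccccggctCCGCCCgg
Fhl2, upstream start, chr1:43196712-43197011, minus strand: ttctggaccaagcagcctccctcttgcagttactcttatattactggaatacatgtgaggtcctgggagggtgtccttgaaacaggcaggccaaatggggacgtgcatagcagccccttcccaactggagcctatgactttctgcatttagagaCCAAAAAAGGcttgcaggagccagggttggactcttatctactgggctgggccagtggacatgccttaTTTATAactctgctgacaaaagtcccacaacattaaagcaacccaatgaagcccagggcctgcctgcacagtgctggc
Fhl2, downstream start, chr1:43163912-43164211, minus strand: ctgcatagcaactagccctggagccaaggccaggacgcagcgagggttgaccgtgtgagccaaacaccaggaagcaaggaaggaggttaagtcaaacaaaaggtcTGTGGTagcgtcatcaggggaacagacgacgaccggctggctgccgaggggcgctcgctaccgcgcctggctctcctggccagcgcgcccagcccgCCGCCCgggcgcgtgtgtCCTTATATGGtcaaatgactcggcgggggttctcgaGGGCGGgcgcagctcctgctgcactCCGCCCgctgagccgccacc
Cnn2, chr10:79988350-79988649, plus strand: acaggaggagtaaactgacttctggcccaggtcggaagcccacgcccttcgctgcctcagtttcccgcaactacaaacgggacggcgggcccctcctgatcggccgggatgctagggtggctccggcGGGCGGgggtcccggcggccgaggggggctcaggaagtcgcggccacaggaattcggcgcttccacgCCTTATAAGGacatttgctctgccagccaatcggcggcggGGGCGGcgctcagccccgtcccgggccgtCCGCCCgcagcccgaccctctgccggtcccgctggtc

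The windows differed in base composition and in motifs. The upstream start of Fhl2 lay in a window of 51.3% G and C with 1 CpG, and had a CArG box from base -96. It also had a TATAAA match from base -28, on the strand opposite to the gene. The downstream start lay in a window of 66.0% G and C with 27 CpGs, and had a CArG box from base -31 and a RUNX motif from base -145. The Tpm2 window was 70.3% G and C with 20 CpGs and held 3 SP motifs and none of the other motifs searched. A CArG box was found in 3 of the 10 windows of the members, which belong to Fhl2 and Cnn2, and in 1.63% of all 32851 windows. SP motifs were found in 8 of the 10 windows of the members, with each of the 8 members among them, and in 35.7% of all windows. The members' windows were 51.3% to 78.3% G and C, beside a median of 52.7% over all windows. The part of base composition in the motif counts was not tested. TEAD motifs were found in the windows of Tpm1 and Tagln2 and in 14.7% of all windows. RUNX motifs were found in 16.8% of all windows, TATAAA on either strand in 13.6% and AP-1 motifs in 7.81%, with no AP-1 motif in a member's window. These matches describe letters in the windows and do not show that a factor binds.

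**Figure D1:**
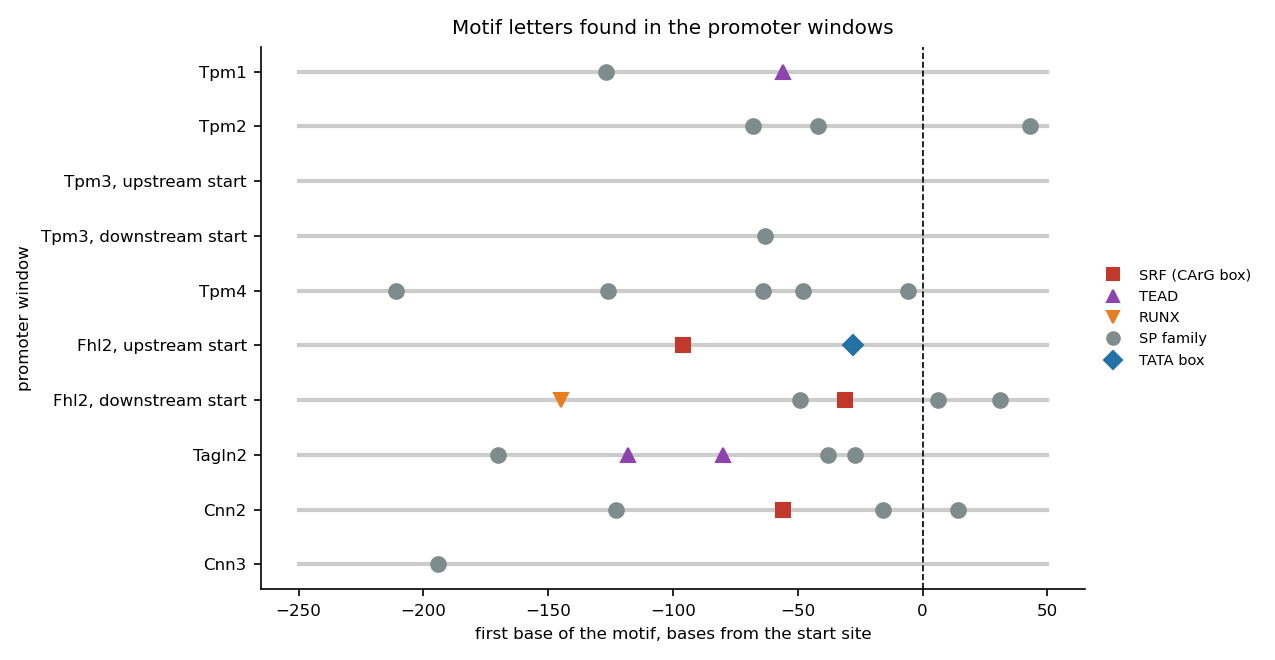
Motif letters in the 10 promoter windows of the 8 genes, by the distance of the first base of the motif from the start site in bases (x axis) and the window (y axis). Grey lines are the windows, symbols are motifs on either strand, and the CArG boxes lie at bases -96 and -31 of the Fhl2 windows and at base -56 of the Cnn2 window.

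Tpm2, which encodes the beta-tropomyosin of slow skeletal and smooth muscle, was near the limit of detection in WT cells. Its level was 0.127, 0.0930, 0.194 and 0.0507 FPKM in WT replicates 1 to 4. In HDAC1cKO-HDAC2HET replicates 1 to 4 it was 5.87, 7.19, 6.41 and 6.57 FPKM. Every HDAC1cKO-HDAC2HET sample lay above every WT sample, and the means were 0.116 ± 0.0606 and 6.51 ± 0.546 FPKM (SD, n = 4 each). The HDAC1cKO-HDAC2HET mean was 56.0 times the WT mean, a difference of 4.97 (SE 0.20) in log2(FPKM + 0.1), which is the scale of all log2 fold changes given here. The deposited confidence bounds can be converted to fragments for genes with a single transcript. For Tpm2 the same conversion gives 1.16 to 4.49 in each WT library and 110 to 257 in each HDAC1cKO-HDAC2HET library. It was not checked for genes like Tpm2, so these values are not fragment counts. Because the WT level was so low, the log2 fold change moved with the constant added before the logarithm. It was 2.75 with 1 FPKM and 5.82 with 0.01 FPKM. In these bulk samples, more cells with Tpm2 and more Tpm2 RNA per cell cannot be told apart. The gene lies on the minus strand of chromosome 4 (chr4:43514711-43523765, GRCm38), overlaps no annotated gene, and shares none of the 3087 distinct 50-base stretches of its transcripts with another gene.

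In the restimulated cells Tpm2 was at 0.0896, 0.644 and 0.687 FPKM in WT replicates 1 to 3 and at 2.21, 1.55 and 2.73 FPKM in HDAC1cKO replicates 1 to 3. The groups did not overlap, and WT replicate 1 was well below the other WT samples. The log2 fold change was 2.2 (SE 0.60, 95% interval 0.74 to 3.67), which did not pass the test at an adjusted p of 0.226 (limma). Converted in the same way, the bounds give 0.18, 2.36 and 2.90 in the WT libraries, which are likewise not fragment counts. Without WT replicate 1, the lowest, the log2 fold change was 1.53, without WT replicate 3 it was 2.56, and with the sex term it was 1.57.

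Fhl2 was the member with the next largest difference. It was at 3.22, 3.12, 2.86 and 3.37 FPKM in WT replicates 1 to 4 and at 14.6, 15.3, 15.6 and 16.3 FPKM in HDAC1cKO-HDAC2HET replicates 1 to 4. The groups were far apart relative to their spread, with means of 3.14 ± 0.216 and 15.5 ± 0.719 FPKM (SD, n = 4 each), a ratio of 4.92 and a log2 fold change of 2.26 (SE 0.06). After restimulation, WT replicates 1 to 3 were at 8.36, 10.01 and 11.7 FPKM and HDAC1cKO replicates 1 to 3 at 14.1, 12.01 and 13.3 FPKM. The HDAC1cKO samples lay above the WT samples by a small margin, and the log2 fold change of 0.40 (SE 0.14, 95% interval 0.05 to 0.75) did not pass the test at an adjusted p of 0.310 (limma). Fhl2 lies on the minus strand of chromosome 1 (chr1:43123074-43196984, GRCm38). The locus measured in the first experiment spanned both starts and ended at base 43196984, whereas in the restimulated cells it ended at base 43163961, the downstream start. The Fhl2 values of the experiments therefore describe unlike loci, and each is read only against the WT samples of its own experiment. An annotated gene, Gm8210, overlaps it on the opposite strand, and whether strand was used in making the values is not given in the sources used here.

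**Figure D2:**
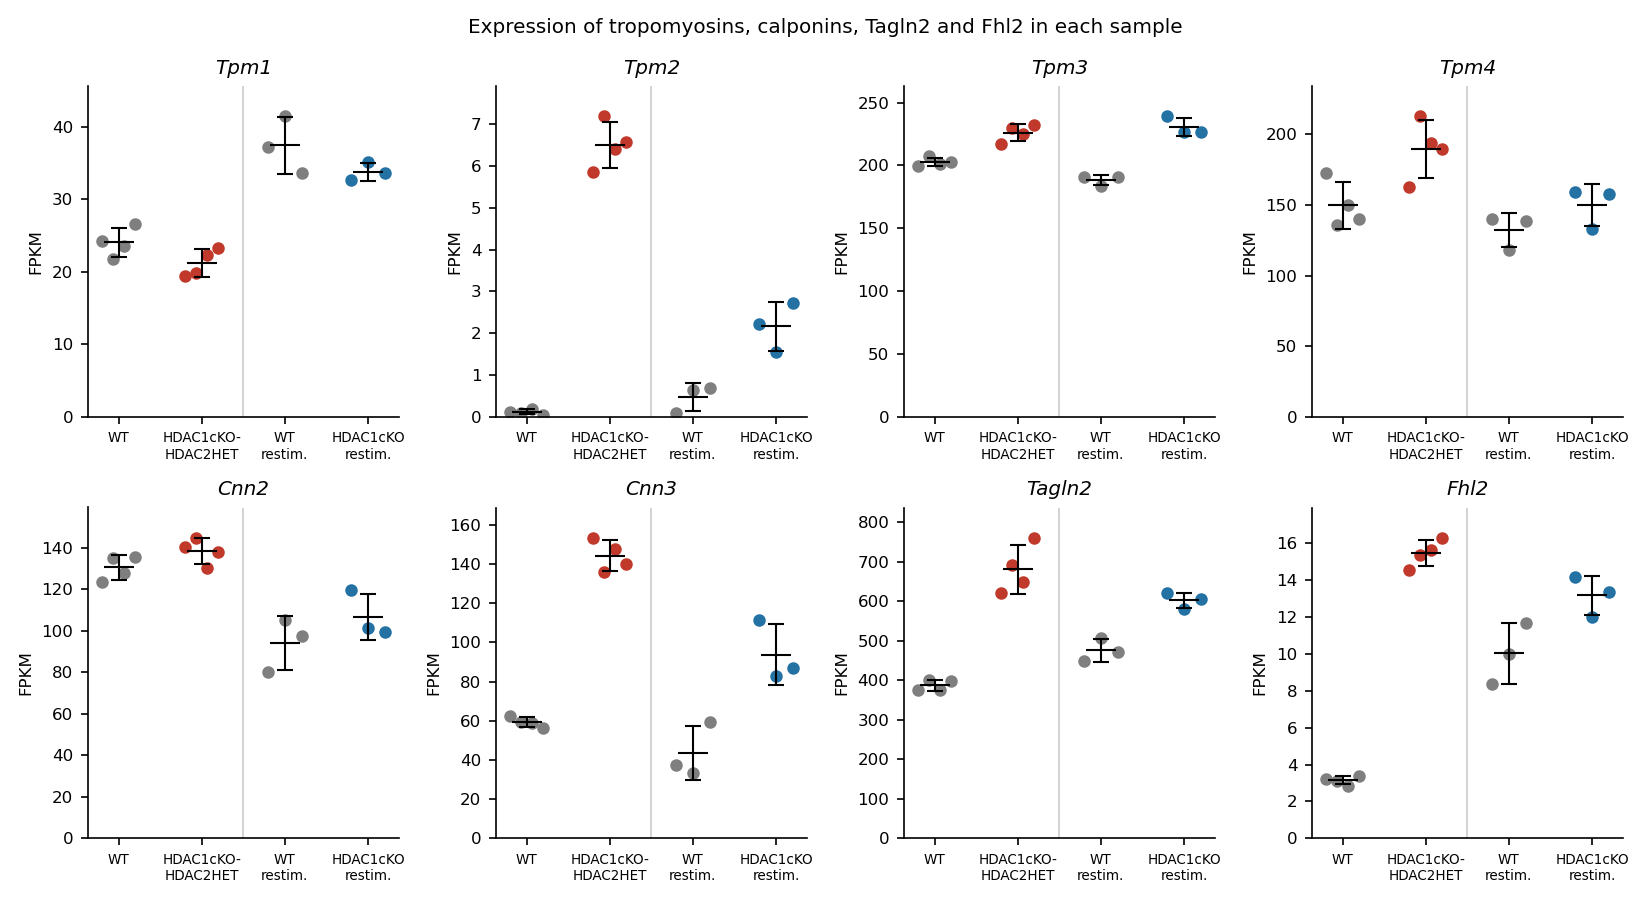
FPKM of each gene (y axis, from 0, with its own scale per panel) in each sample by group (x axis). Points are samples, bars are the mean and SD of 4 samples a group in the first experiment and of 3 in the restimulated cells (restim.), and Tpm2 is at 0.0507 to 0.194 FPKM in WT and 5.87 to 7.19 FPKM in HDAC1cKO-HDAC2HET samples.

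Cnn3, the acidic calponin of nonmuscle cells, was above WT in the mutant cells of both experiments. It was at 62.6, 59.2, 59.0 and 56.5 FPKM in WT replicates 1 to 4 and at 154, 136, 148 and 139.9 FPKM in HDAC1cKO-HDAC2HET replicates 1 to 4. The groups did not overlap, the means differed by a factor of 2.43, and the log2 fold change was 1.28 (SE 0.05). After restimulation it was at 37.6, 33.6 and 59.6 FPKM in WT replicates 1 to 3 and at 111, 82.7 and 87.1 FPKM in HDAC1cKO replicates 1 to 3. The WT samples were uneven, with replicate 3 the highest, yet all were below the HDAC1cKO samples. The means differed by a factor of 2.15, and the log2 fold change of 1.14 (SE 0.24, 95% interval 0.55 to 1.72) did not pass the test at an adjusted p of 0.180 (limma). Without WT replicate 3 it was 1.38, at an adjusted p of 0.0581 (limma), and with the sex term it was 1.47. Of the 3177 distinct 50-base stretches of Cnn3 transcripts, 24.0% also occur in other annotated genes, among them the antisense gene Gm42928, so reads of these stretches are uncertain.

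Cnn2, the calponin of smooth muscle and of blood cells, had groups that overlapped in both experiments. It was at 123, 135, 128 and 136 FPKM in WT replicates 1 to 4 and at 141, 145, 130.0 and 138 FPKM in HDAC1cKO-HDAC2HET replicates 1 to 4. The log2 fold change of 0.08 (SE 0.05) became -0.02 after quantile normalization. WT replicates 1 to 3 of the restimulated cells were at 80.0, 105 and 97.5 FPKM, HDAC1cKO replicates 1 to 3 were at 119.6, 101 and 99.2 FPKM, and the log2 fold change was 0.18 (SE 0.13, 95% interval -0.13 to 0.50, adjusted p = 0.564, limma). That value was 0.02 with the sex term, 0.21 without WT replicate 3, and 0.07 to 0.27 without each sample in turn. Cnn3 was below Cnn2 in all 7 WT samples and did not differ from it beyond the spread in HDAC1cKO-HDAC2HET samples, where their ranges of 136 to 154 and 130.0 to 145 FPKM overlapped.

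Tagln2, the transgelin of nonmuscle cells and a known stabiliser of actin at the T cell synapse, was the most abundant member in every group. It was at 375, 400.1, 375 and 397 FPKM in WT replicates 1 to 4 and at 621, 691, 649 and 761 FPKM in HDAC1cKO-HDAC2HET replicates 1 to 4. The groups did not overlap, and the mutant mean was 1.76 times that of WT, for a log2 fold change of 0.81 (SE 0.07). The restimulated WT replicates 1 to 3 were at 448, 507 and 472 FPKM and HDAC1cKO replicates 1 to 3 at 620.1, 581 and 605 FPKM. These groups did not overlap either, and the log2 fold change of 0.34 (SE 0.08, 95% interval 0.14 to 0.55) did not pass the test at an adjusted p of 0.206 (limma). Its direct neighbour Igsf9, 1169 bases away, fell by 1.67 on the log2 scale in HDAC1cKO-HDAC2HET cells (adjusted p = 1.23e-06, limma).

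Tpm3 and Tpm4, the tropomyosin genes expressed widely outside muscle, made up most tropomyosin RNA. Tpm3 was at 199.9, 207, 202 and 203 FPKM in WT replicates 1 to 4 and at 217, 229.8, 225 and 233 FPKM in HDAC1cKO-HDAC2HET replicates 1 to 4. The groups did not overlap, but the ratio of the means was only 1.12, with a log2 fold change of 0.16 (SE 0.03) that was 0.07 after quantile normalization. After restimulation, Tpm3 was at 190.7, 183.7 and 190.5 FPKM in WT and at 239, 227 and 226 FPKM in HDAC1cKO replicates 1 to 3, also without overlap. There the log2 fold change was 0.29 (SE 0.06, 95% interval 0.14 to 0.45), which did not pass the test at an adjusted p of 0.187 (limma). The retrocopy Tpm3-rs7 holds 23.2% of the 50-base stretches of Tpm3 transcripts and was itself at 0.167 to 0.395 FPKM over the 14 samples.

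Tpm4 was at 173, 136, 149.9 and 140.0 FPKM in WT replicates 1 to 4 and at 163, 213, 193.6 and 189.3 FPKM in HDAC1cKO-HDAC2HET replicates 1 to 4. The groups overlapped through the highest WT and the lowest HDAC1cKO-HDAC2HET sample, and the log2 fold change was 0.34 (SE 0.10). The pseudogene Gm7809 holds 11.7% of the 50-base stretches of Tpm4 transcripts, and its own value varied widely. It was at 0.263, 9.40, 11.7 and 12.6 FPKM in WT replicates 1 to 4 and at 32.3, 2.67, 2.58 and 16.0 FPKM in HDAC1cKO-HDAC2HET replicates 1 to 4. The WT sample with the highest Tpm4 value was thus the one with the lowest Gm7809 value, and the HDAC1cKO-HDAC2HET sample with the lowest Tpm4 value was the one with the highest, so the Tpm4 values are uncertain to that extent. The part of this division in the overlap of the groups was not tested. After restimulation, Tpm4 was at 140.2, 118 and 139 FPKM in WT and at 159, 133 and 158 FPKM in HDAC1cKO replicates 1 to 3, and its log2 fold change of 0.18 (SE 0.11, 95% interval -0.09 to 0.45) had an adjusted p of 0.502 (limma). It was 0.34 with the sex term, 0.22 without WT replicate 3, and 0.10 to 0.27 without each sample in turn.

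Tpm1, the alpha-tropomyosin of striated and smooth muscle that also has nonmuscle isoforms, was the 1 member below WT in both experiments. It was at 24.3, 21.8, 23.6 and 26.7 FPKM in WT replicates 1 to 4 and at 19.4, 19.9, 22.3 and 23.3 FPKM in HDAC1cKO-HDAC2HET replicates 1 to 4. The groups overlapped, and the log2 fold change was -0.18 (SE 0.08). Restimulated cells had Tpm1 at 37.3, 41.5 and 33.6 FPKM in WT and at 32.6, 35.1 and 33.7 FPKM in HDAC1cKO replicates 1 to 3. These groups overlapped too, and the log2 fold change was -0.14 (SE 0.09, 95% interval -0.37 to 0.09, adjusted p = 0.537, limma). It was -0.30 with the sex term, and -0.22 to -0.07 without each sample in turn, with -0.22 the value without WT replicate 3.

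Added together, the 4 tropomyosin genes were at 377 ± 14.2 FPKM in WT and 444 ± 27.3 FPKM in HDAC1cKO-HDAC2HET samples (SD, n = 4 each). After restimulation the sums were 359 ± 12.8 FPKM in WT and 417 ± 19.0 FPKM in HDAC1cKO samples (SD, n = 3 each). Tpm3 gave 53.9% ± 2.69 of the sum in WT and 51.1% ± 1.96 in HDAC1cKO-HDAC2HET samples, and Tpm4 gave 39.7% ± 2.82 and 42.7% ± 2.16. The share of Tpm1 was 6.40% ± 0.559 in WT and 4.79% ± 0.403 in HDAC1cKO-HDAC2HET samples, and these samples did not overlap. The share of Tpm2 was 0.0307% ± 0.0159 in WT and 1.47% ± 0.0443 in HDAC1cKO-HDAC2HET samples, so Tpm2 stayed a minor tropomyosin where it was highest. After restimulation the share of Tpm2 was 0.134% ± 0.0946 in WT and 0.517% ± 0.129 in HDAC1cKO samples.

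The order of the FPKM levels was Tagln2, Tpm3, Tpm4, Cnn2, Cnn3, Tpm1, Fhl2 and Tpm2 in both WT groups and in HDAC1cKO samples, and HDAC1cKO-HDAC2HET samples differed from it only in that the mean of Cnn3 was above that of Cnn2. Neighbours in this order had ranges that overlapped only for Cnn3 and Cnn2 in the HDAC1cKO-HDAC2HET and HDAC1cKO groups and for Cnn3 and Tpm1 in restimulated WT samples. In HDAC1cKO-HDAC2HET cells 5 of the 8 genes, Tpm2, Tpm3, Fhl2, Tagln2 and Cnn3, lay above WT without overlap, as did 23.4% of the 15130 genes tested, and none lay below, as did 26.9%. Since the genes were chosen on this comparison, nothing is read from that count. The median log2 fold change of the 8 was 0.58, beside -0.04 over all genes tested.

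In the restimulated cells the same 5 genes lay above WT without overlap, as did 9.96% of the 14003 genes tested, and none lay below, as did 12.3%. None of the 8 passed the test at an adjusted p of at most 0.05, as 0.0143% of the genes tested did in the higher and 0.0571% in the lower direction (limma). At an unadjusted p under 0.05 the count was 5 of 8, beside 14.3% of all genes tested. In an exact permutation test over the samples each of these 5 genes had p = 0.10, the smallest value that 3 against 3 samples allow (2-sided). When all 14 samples were fitted together, the same 5 passed, beside 5.19% of 12414 genes in the higher direction (limma). Their adjusted p were 0.0113 for Tpm2, 0.00165 for Tpm3, 0.0389 for Fhl2, 0.0146 for Tagln2 and 0.00262 for Cnn3 (limma). That fit takes its spread also from the first experiment, on which the genes were chosen, and joins the unlike loci of Fhl2. Nothing is therefore read from these calls. In the separate fit without WT replicate 3, none of the 8 passed. Without WT replicate 3 the log2 fold changes were 0.30 for Tpm3, 0.52 for Fhl2 and 0.34 for Tagln2, and with the sex term they were 0.33, 0.39 and 0.25. The median log2 fold change of the 8 was 0.32, beside -0.03 over all genes tested. Fhl2 aside, the log2 fold changes in HDAC1cKO-HDAC2HET cells and in restimulated HDAC1cKO cells were 4.97 and 2.2 for Tpm2, 0.81 and 0.34 for Tagln2, 1.28 and 1.14 for Cnn3, 0.34 and 0.18 for Tpm4, 0.16 and 0.29 for Tpm3, 0.08 and 0.18 for Cnn2, and -0.18 and -0.14 for Tpm1. Genotype, culture and experiment differ together between these values, so they cannot be told apart and the difference was not tested.

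**Figure D3:**
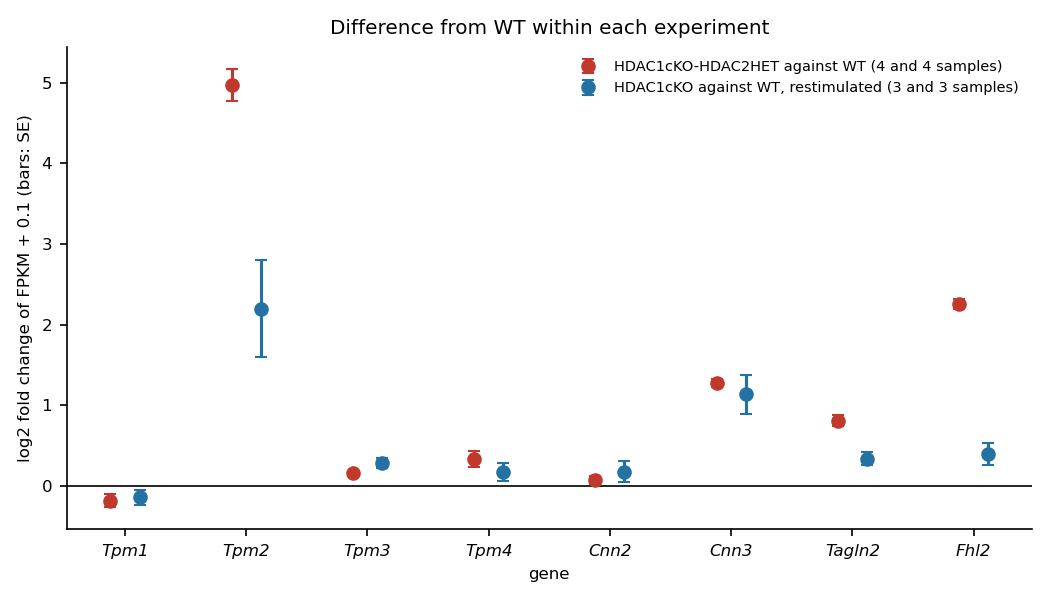
The log2 fold change of FPKM + 0.1 from WT (y axis, bars are SE) for each gene (x axis) in HDAC1cKO-HDAC2HET cells (4 and 4 samples, red) and restimulated HDAC1cKO cells (3 and 3 samples, blue). Cnn3 is at 1.28 and 1.14, and the Fhl2 values of 2.26 and 0.40 come from unlike loci and are not to be set against each other.

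The other genes of the actin cytoskeleton moved in both directions in HDAC1cKO-HDAC2HET cells. The 8 lists held 88 genes, of which 65 were tested. Of these, 25 rose, which is 38.5% beside 24.2% of all genes tested, and 17 fell, which is 26.2% beside 27.6% (limma, adjusted p of at most 0.05). The median log2 fold change of the 65 was 0.05, against -0.04 for all genes. The joint fit of all 14 samples, which tested 60 of them, called 17 higher and 10 lower. The share of all genes it called there was not determined, so nothing is read from these counts. In the restimulated cells 0 of the 66 tested passed and 16 had an unadjusted p under 0.05, beside 14.3% of all genes tested (limma). The joint fit called 6 higher there, beside 5.19% of 12414 genes, and 4 lower, for which no share was determined.

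The cytoplasmic actins went opposite ways in HDAC1cKO-HDAC2HET cells. Actb, the main actin of T cells, fell from 2884 ± 44.4 to 2563 ± 124 FPKM (log2 fold change -0.17, SE 0.05, adjusted p = 0.0229, limma), a call that was lost under quantile normalization, where the log2 fold change was -0.03 with an adjusted p of 0.804, and without any 1 of WT replicates 1, 3 and 4 and HDAC1cKO-HDAC2HET replicate 3 (adjusted p of 0.0508 to 0.0607). Actg1 rose from 604 ± 15.1 to 839.8 ± 23.2 FPKM (SD, n = 4 each), by 0.48 on the log2 scale (SE 0.03). Actc1, Acta2 and Actg2, the actins of heart and smooth muscle, had means of at most 0.0562 FPKM in these groups, and Acta1 was not analysed here. Actb in restimulated cells had a log2 fold change of 0.06 (SE 0.13) and Actg1 of 0.01 (SE 0.07). Among the kin of the calponins, transgelins and LIM proteins, 1 of 3 tested genes rose and none fell, beside 24.2% higher and 27.6% lower among all genes tested. The gene that rose was Csrp2, a LIM-domain protein of smooth muscle, from 4.74 ± 0.490 to 7.34 ± 0.843 FPKM. The tropomodulins, which cap the pointed end of tropomyosin-coated filaments, had 2 tested genes, and neither passed.

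Nonmuscle myosin II is the motor whose access to actin tropomyosin governs. Of 5 tested genes of this motor and its kinases, 3 fell and none rose, beside 27.6% lower and 24.2% higher among all genes tested. Those that fell included the heavy chain gene Myh9, from 163 ± 7.68 to 123 ± 3.40 FPKM, and the kinase gene Rock1, from 25.9 ± 1.81 to 22.5 ± 0.935 FPKM. Among 18 tested genes of filament turnover and monomer binding, 6 rose and 5 fell, which is 33.3% and 27.8%, beside the same 24.2% and 27.6%. Gsn, which encodes the severing protein gelsolin, rose from 2.14 ± 0.318 to 11.9 ± 0.830 FPKM (log2 fold change 2.43, SE 0.10, adjusted p = 2.49e-06, limma), and Limk1, the kinase that inactivates cofilin, rose from 5.92 ± 0.242 to 12.9 ± 1.70 FPKM. Dstn, the cofilin relative destrin, fell by 0.84 on the log2 scale, and the capping protein gene Capg fell by 0.73 (SE 0.08 and 0.04).

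Among 13 tested crosslinkers and adhesion adaptors, 8 rose and 2 fell, which is 61.5% and 15.4%. Over all genes tested the shares were 24.2% higher and 27.6% lower. Zyx, which encodes the adhesion protein zyxin, rose from 39.6 ± 2.85 to 90.2 ± 5.27 FPKM, or by 1.19 on the log2 scale (SE 0.06), and Vcl, which encodes vinculin, rose from 1.63 ± 0.178 to 3.15 ± 0.335 FPKM. Evl and Vasp, which encode filament-elongating proteins, fell by 0.73 (SE 0.10) and 0.13 (SE 0.03) on the log2 scale. Among 18 tested genes of filament nucleation, 8 rose and 4 fell, which is 44.4% and 22.2%, beside the same 24.2% and 27.6%. The formin gene Diaph1 rose from 36.8 ± 4.43 to 63.2 ± 3.15 FPKM and its relative Diaph2 fell from 3.06 ± 0.211 to 1.79 ± 0.139 FPKM. Coro1c, a coronin, rose by a log2 fold change of 0.64 (SE 0.04), and Wasl, the activator N-WASP, fell by 0.47 (SE 0.05). Srf itself was at 25.4 ± 0.374 and 26.4 ± 1.5 FPKM and did not pass the test (adjusted p = 0.342, limma). Its cofactor gene Mrtfa rose by a log2 fold change of 0.20 (SE 0.05), while Mrtfb fell from 3.15 ± 0.241 to 1.51 ± 0.104 FPKM and Elk1 from 4.93 ± 0.199 to 3.78 ± 0.101 FPKM.

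**Figure D4:**
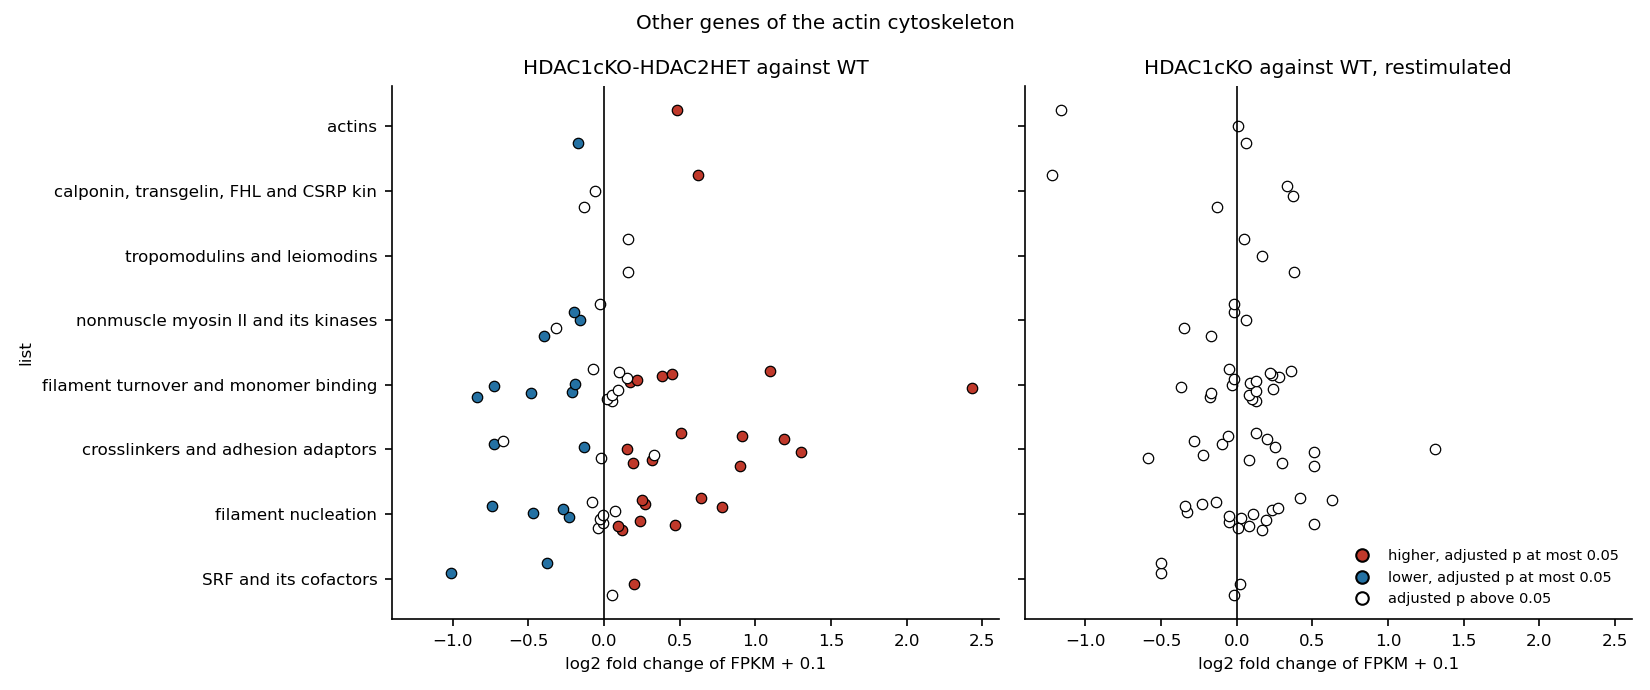
The log2 fold change of FPKM + 0.1 (x axis) of the tested genes of 8 actin cytoskeleton lists (y axis) in HDAC1cKO-HDAC2HET cells (left) and restimulated HDAC1cKO cells (right). Each point is a gene, filled where its adjusted p was at most 0.05, with 25 higher and 17 lower on the left and none on the right.

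The muscle genes themselves were at low levels. Of 20 muscle markers, 17 had a value in the first experiment, and their summed level was 1.63 to 2.04 FPKM in WT and 2.30 to 2.95 FPKM in HDAC1cKO-HDAC2HET samples. The myogenic factor genes Myod1 and Myog, the myosin gene Myh2 and the smooth muscle gene Lmod1 were listed at 0 in all 8 samples. Of the 4 muscle markers tested, 2 rose in HDAC1cKO-HDAC2HET cells and none fell, beside 24.2% higher and 27.6% lower among all genes tested. Myh11 and Tnnc1, which were also tested, had log2 fold changes of -0.43 (SE 0.19) and -0.31 (SE 0.20) and did not pass (limma). Smtn, which encodes the actin-binding smoothelin, rose from 0.776 ± 0.109 to 1.33 ± 0.281 FPKM (SD, n = 4 each, adjusted p = 0.0103, limma), and the troponin gene Tnnt3, named after its values were seen, rose from 0.356 ± 0.0660 to 0.707 ± 0.0798 FPKM (adjusted p = 0.00190, limma), both without overlap. After restimulation 14 markers had a value, at a sum of 3.06 to 3.59 FPKM in WT and 2.35 to 3.18 FPKM in HDAC1cKO samples. In these groups Tnnt2 was at 1.16 ± 0.306 and 1.00 ± 0.777 FPKM and Smtn at 0.993 ± 0.263 and 1.07 ± 0.0880 FPKM. Tnnt3 was at 0.715 ± 0.298 FPKM in restimulated WT and 0.502 ± 0.198 FPKM in HDAC1cKO samples, a log2 fold change of -0.43 (SE 0.41). The markers of other cells that had a value summed to at most 0.907 FPKM in any sample for fibroblasts (7 of 8 markers in the first experiment and 5 after restimulation), 0.603 FPKM for endothelium (2 and 3 of 5), 1.31 FPKM for platelets (4 of 5) and 0.571 FPKM for myeloid cells (5 of 6). The 4 B cell markers summed to 0.497 to 0.945 FPKM in WT and 2.78 to 4.38 FPKM in HDAC1cKO-HDAC2HET samples, mainly through Cd79b at 0.293 ± 0.0713 and 2.76 ± 0.473 FPKM. The part of these markers in the levels of Tpm2 and Fhl2 was not tested.

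Over the 14 samples, among 8990 protein-coding genes with a mean of at least 1 FPKM, genes whose log2 values followed Tpm2 closely included Pcyox1 and Fkbp4, with Pearson's r of 0.988 and 0.984. Neither is a member or belongs to the 8 lists. Pcyox1, which encodes the prenylcysteine oxidase that breaks down prenylated cysteines, was at 4.74 ± 0.365 FPKM in WT, 9.13 ± 0.225 FPKM in HDAC1cKO-HDAC2HET, 5.67 ± 0.960 FPKM in restimulated WT and 7.40 ± 0.544 FPKM in HDAC1cKO samples. Tagln2 was the member most like Tpm2 (r = 0.954), at rank 48 among the genes compared. No such correlation is given for Fhl2, whose locus held both starts in the first experiment only. The loci of Tpm2, Tpm4 and Cnn3 differed less. That of Tpm2 ended at base 43523595 in the first experiment and at base 43523765 after restimulation. These correlations describe 14 samples of 4 groups that share experiment and genotype, and the samples are not independent points.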

How the data were processed

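RNA was measured in 14 libraries of activated mouse CD4+ T cells, grouped by the labels. The authors mapped reads to mm10 with TopHat 2.0.13 and made the deposited FPKM values for each library with Cufflinks 2.2.1; the submitters' processing notes also name STAR 2.5.2b, Subread 1.5.1 and edgeR, whose output was not used here. A gene was read from its named row or, where a library had none, from the assembled locus that shared at least 0.8 of the joint span. Such loci were used for Tpm1, Tpm3, Cnn2 and Tagln2 in all 14 samples. Depth was estimated from the deposited confidence bounds of low genes with a single transcript. Of these, 72.7% to 82.0% gave a whole number of fragments within 0.05, and no interval was built on the depth.

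Each experiment was fitted with limma 3.58.1 (R 4.3.3) on log2(FPKM + 0.1) for genes with a mean of at least 0.1 FPKM, with a variance trend and Benjamini-Hochberg adjustment over all of them; a gene passed at an adjusted p of at most 0.05. A fold change on this scale understates the change of low genes. Members were also compared by a 2-sided exact permutation over samples (scipy 1.17.1). The scripts were tested on simulated data. Within the pathway lists the text names the actins and up to 2 largest rises and 2 largest falls a list, among genes that passed without overlap at a mean of at least 1 FPKM, and the 3 genes most like Tpm2, of which 1 is not reported here. The genes most like Fhl2, which the rule also named, were left out because its locus differed between the experiments. Transcripts and gene positions came from GENCODE M21 (GRCm38), and promoters from RefSeq. The members, lists and rules were chosen with earlier results of these data known. Alternatives changed the pseudocount, filter, scaling, variance trend, matching of loci, sex term, replicate block, joint fit and each sample in turn.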

Additional observations from a re-analysis of the deposited data

Results flagged for a closer look

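Among 60 groups of 4 samples of the genes named, 2 had a sample far from the other 3, where chance flags about 1 group in 20. Limk1 was at 15.4 FPKM in HDAC1cKO-HDAC2HET replicate 2 and at 11.7 to 12.2 FPKM in the other replicates. Diaph1 was at 43.4 FPKM in WT replicate 1 of the first experiment and at 34.3 to 35.0 FPKM in the others. No sample of a tropomyosin, calponin, Tagln2 or Fhl2 stood apart in this way in a group of 4, and groups of 3 were not examined.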

How the results depend on the processing

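Among the members only Cnn2 changed direction under an alternative that was run. The median log2 fold change of the 8 in HDAC1cKO-HDAC2HET cells was 0.54 to 0.63 without each sample in turn. The count of members past the test in HDAC1cKO cells was 0 without each sample in turn and 5 in the joint fit of 14 samples. The spread of that fit comes also from the experiment on which the members were chosen. Without each sample in turn 64 to 66 pathway genes were tested in HDAC1cKO-HDAC2HET cells, of which 22 to 25 were higher and 16 to 18 lower. In HDAC1cKO cells 0 pathway genes passed without each sample in turn. The joint fit, which tested 60 of them, called 17 higher and 10 lower in HDAC1cKO-HDAC2HET cells, and 6 higher and 4 lower in HDAC1cKO cells. Its share over all genes was determined only for the higher direction in HDAC1cKO cells, at 5.19% of 12414 genes. Genes listed by name in every sample numbered 5 in the first experiment, of which 2 were higher and 1 lower; no member was among them. Same-numbered samples correlated by -0.027 to 0.0664 in their deviations from the group mean. Groups this small cannot show whether same-numbered samples were prepared together. With the replicate block 24 of 65 tested pathway genes were higher and 18 lower in HDAC1cKO-HDAC2HET cells, and 0 members passed in HDAC1cKO cells. The share of all genes called was not determined with the replicate block, for genes listed by name or without each sample in turn. Nothing is therefore read from the pathway counts of these alternatives. Quantile normalization gave Cnn2 a log2 fold change of -0.02 in HDAC1cKO-HDAC2HET cells, and in HDAC1cKO cells -0.06 for Actb, -0.06 for Actg1 and 0.02 for Vcl. In HDAC1cKO cells the sex term, which rests on WT replicate 2 alone, gave -0.07 for Actg1, 0.06 for Rock1, -0.12 for Zyx and -0.15 for Mrtfa. Without each sample in turn Actg1 ranged from -0.02 to 0.05, Rock1 from -0.09 to 0.08, Vcl from -0.15 to 0.03 and Mrtfa from -0.10 to 0.11. None of these passed the test without each sample in turn. The cause of these changes was not tested. The sex term could not be fitted in the first experiment, where all 8 samples had Xist. The low level of Tpm2 in WT cells limits its values, at means of 0.116 FPKM in the first experiment and 0.474 FPKM after restimulation. Actb in HDAC1cKO-HDAC2HET cells lost its call in 8 alternatives, at an adjusted p of 0.0508 to 0.804. Rock1 lost its call in 2 alternatives (0.0544 and 0.0750), and Vasp and Mrtfa lost theirs in the joint fit (0.0540 and 0.0782).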

Other observations

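The surroundings of the members were examined after the values had been seen. Of 9 tested genes within 100 kb of Tpm2, 5 were higher in HDAC1cKO-HDAC2HET cells and none lower, at a median log2 fold change of 0.46 (limma, adjusted p of at most 0.05), where 24.2% of all genes tested were higher and 27.6% lower. They were Tesk1, Cd72, Sit1, Rmrp and Tln1, with log2 fold changes of 0.53 (SE 0.05), 0.75 (SE 0.06), 0.46 (SE 0.09), 1.95 (SE 0.29) and 0.51 (SE 0.06). Tln1, which encodes the integrin activator talin, lies 7754 bases upstream of Tpm2 on the same strand. In restimulated HDAC1cKO cells none of 8 tested neighbours of Tpm2 passed, and their median log2 fold change was 0.12.

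Around Fhl2, 2 of 3 tested neighbours were lower in HDAC1cKO-HDAC2HET cells and none higher, beside 27.6% lower and 24.2% higher among all genes tested. They were Tgfbrap1 and AI597479, with log2 fold changes of -0.25 (SE 0.04) and -0.27 (SE 0.05). Around Tagln2, 2 of 4 were lower, namely Igsf9 at -1.67 (SE 0.06) and Slamf9 at -2.77 (SE 0.17), and in restimulated HDAC1cKO cells these were at -0.79 (SE 0.16) and -1.21 (SE 0.27), with adjusted p of 0.177 and 0.187 (limma). Among the tested neighbours of the other members, 5 of 11 were higher and 3 lower around Cnn2, 1 of 2 was higher and none lower around Tpm1, and none of 3 was higher and 1 lower around Cnn3. Around Tpm3 (6 tested) and Tpm4 (8 tested), 1 was higher and 1 lower each.

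The B cell receptor gene Cd79b had a log2 fold change of 2.87 (SE 0.18) in HDAC1cKO-HDAC2HET cells and of 0.65 (SE 0.28, adjusted p = 0.360, limma) in restimulated HDAC1cKO cells.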
